A study of Mus musculus with 64 samples.

Results

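The 7 genes described here encode regulators of transcription that carry the time signal of the circadian clock to its target genes or act back on the clock. They are the PAR-bZIP activators Dbp, Tef, and Hlf, the bZIP repressor Nfil3 (E4BP4), the bHLH-Orange repressors Bhlhe40 (DEC1) and Bhlhe41 (DEC2), and Ciart (CHRONO), a repressor of the core clock. They were chosen by name and function, with earlier results of these data known. They are 7 of the 55401 genes in the count table, and all 7 passed the filter on low counts that left 15241 genes for testing. RNA sequencing of gastrocnemius muscle covered fl/fl mice, which carry floxed Hif1a alleles, and their HIF1α KO littermates, in which Cre, expressed in skeletal muscle fibers from the HSA (human α-skeletal actin) promoter, removes exon 2 of Hif1a. Both genotypes had been bred for 2 to 9 generations on a C57BL/6JBomTac background, were 12 to 18 wk old, and included males and females. Mice of each genotype spent 60 min running on a treadmill at 5% incline, with the speed raised stepwise to 16 m/min and then held (exercised), or were placed on a mock treadmill (sedentary), either at ZT3 in the early rest phase or at ZT15 in the early active phase, where ZT is the number of hours after lights on. Muscle was collected 3 h after the run or mock run, and each mouse gave 1 library. ZT3 and ZT15 thus name the time of the run. Levels given at ZT3 or ZT15 are those of muscle taken later than the named hour. The 8 groups held 8 mice each, 4 males and 4 females, except the exercised HIF1α KO group at ZT3, which held 7 (3 males and 4 females) because the library of mouse 44 held almost no counts and was left out.

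DBP, TEF, and HLF bind a DNA element called the D-box as dimers and activate transcription, and NFIL3 binds the same element and represses it. DBP transcription is driven by the CLOCK:BMAL1 dimer through E-boxes, whereas Nfil3 is repressed by REV-ERBα and REV-ERBβ, so that activator and repressor of the D-box are known to peak at opposite times of day. DEC1, DEC2, and CHRONO oppose CLOCK:BMAL1 at E-boxes and are themselves under its control. DEC1 is also a known target of HIF1, which binds the hypoxia response element, a short sequence that resembles the E-box.

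Total counts per library ranged from 2359780 to 40377963 across the 63 libraries. Values are CPM, counts scaled to a library size of 1000000 after TMM correction. The markers of muscle fibers were high in every library, with a summed level of 7 genes of at least 206300 CPM, whereas those of lymphocytes summed to at most 0.726 CPM and 5 of the 6 had a median of 0. Markers of slow fibers, fat, blood, endothelium, fibroblasts, and macrophages were present at lower levels. The share of counts on the mitochondrial ribosomal RNAs mt-Rnr1 and mt-Rnr2, a measure of library composition, ranged from 0.712 to 11.6% and followed the mouse number, with medians of 6.55, 1.84, 2.67, and 5.13% in the 4 consecutive ranges of 16 mouse numbers. Each range held at least 1 mouse of every group. In bulk muscle, fewer cells of a type and less RNA per cell cannot be told apart. Hif1a itself had a mean of 36.4 CPM in each genotype, with an SD of 6.31 in the 32 fl/fl and 4.804 in the 31 HIF1α KO mice (log2 fold change 0.0042, SE 0.0492, adjusted p = 0.979). A count over the whole gene does not check the deletion of exon 2, and cells other than muscle fibers keep the gene.

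In the GENCODE M21 annotation of GRCm38, Dbp lies on chromosome 7 (45705088 to 45710203, plus strand), Tef on chromosome 15 (81802421 to 81826863, plus strand), and Hlf on chromosome 11 (90336536 to 90390895, minus strand). Nfil3 lies on chromosome 13 (52967209 to 52981073, minus strand) and Ciart on chromosome 3 (95878503 to 95882251, minus strand). Bhlhe40 (108660629 to 108666925, plus strand) and Bhlhe41 (145858243 to 145865558, minus strand) share chromosome 6. Promoter sequences from RefSeq (GRCm38.p6, 250 bases before to 50 bases after each transcription start) were found for 6 of the 7 genes, with 2 starts for Tef. Distances to a start are counted from the RefSeq starts, which differ from the GENCODE coordinates. These windows were searched on both strands for the E-box CACGTG, the D-boxes TTATGTAA and TTACGTAA, the hexamer AGGTCA that ROR and REV-ERB receptors bind, and the hypoxia element cores ACGTG and GCGTG. Every CACGTG holds ACGTG on both strands, so these motifs overlap. The E-box occurred in the windows of Ciart, Tef (both starts), and Bhlhe41. Ciart held 3 E-boxes, starting 116, 58, and 44 bases before the start. Of the 32851 windows in the table, 7.15% held at least 1 E-box and 0.0883% held 3 or more. The following stretch of the Ciart promoter (chr3:95882252-95882388, minus strand, GRCm38.p6), which ends at the outermost annotated start, is shown for these 3 E-boxes, which are in capitals.

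Ciart: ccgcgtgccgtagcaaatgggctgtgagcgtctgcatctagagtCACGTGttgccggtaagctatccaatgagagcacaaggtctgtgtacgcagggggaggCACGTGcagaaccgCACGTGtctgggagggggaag

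The single E-boxes of the other members lay 127 bases before the first and 138 bases before the second Tef start (chr15:81802534-81802563 and chr15:81811264-81811293, plus strand) and 153 bases before the Bhlhe41 start (chr6:145865556-145865585, minus strand). Both Tef sites lie inside the GENCODE span of Tef. The E-boxes are shown with their flanks so that the bases around the shared core can be compared, with the E-box in capitals.

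Tef, first start: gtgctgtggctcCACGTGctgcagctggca
Tef, second start: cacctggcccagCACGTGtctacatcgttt
Bhlhe41: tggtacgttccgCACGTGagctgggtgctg

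The window of Nfil3 held no E-box but 1 AGGTCA hexamer, 12 bases before its RefSeq start (chr13:52981034-52981063, minus strand). This motif was found in 16.3% of all windows, and here it lies inside the GENCODE span of Nfil3. It is shown because Nfil3 was the member that moved opposite to Dbp and Ciart, with the hexamer in capitals as its reverse complement.

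Nfil3: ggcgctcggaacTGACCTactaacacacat

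Neither Dbp nor Hlf held an E-box or an AGGTCA hexamer in these windows, and no member held a D-box, which 0.938% (TTATGTAA) and 0.119% (TTACGTAA) of all windows did. ACGTG, present in 19.6% of windows, occurred outside an E-box once, in Dbp. GCGTG, present in 32.4% of windows, occurred 2 times in Dbp, 4 times in Hlf, 2 times in Bhlhe41, and 1 time each in Ciart and at the second Tef start. These matches describe the letters in the windows and not binding.

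The level of each member was compared per kilobase of its annotated exons. Averaged over the 63 mice, Tef was the most abundant at 25.7 ± 3.82 CPM per kb (SD), followed by Nfil3 at 16.8 ± 9.19, Bhlhe40 at 11.02 ± 4.57, Dbp at 9.69 ± 5.93, Bhlhe41 at 3.09 ± 1.28, Ciart at 1.27 ± 1.00, and Hlf at 0.902 ± 0.312 CPM per kb. Neighbours from Tef down to Dbp differed by less than the larger of their SDs, as did Ciart and Hlf, so that their order does not exceed this pooled spread. Dbp and Bhlhe41, and Bhlhe41 and Ciart, differed by more. The SDs span the 8 groups and so include the differences between times of day. At ZT3 alone, Tef was at 27.7 ± 3.78 and Nfil3 at 10.23 ± 3.69 CPM per kb (SD). At ZT15, Tef was at 23.7 ± 2.70 and Nfil3 at 23.25 ± 8.34 CPM per kb (SD). Tef was also the least variable member over all mice, with a coefficient of variation of 14.9%, and Ciart the most variable, at 79.1%. Ciart rested on few reads, with 1 to 231 counts per library.

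**Figure D1:**
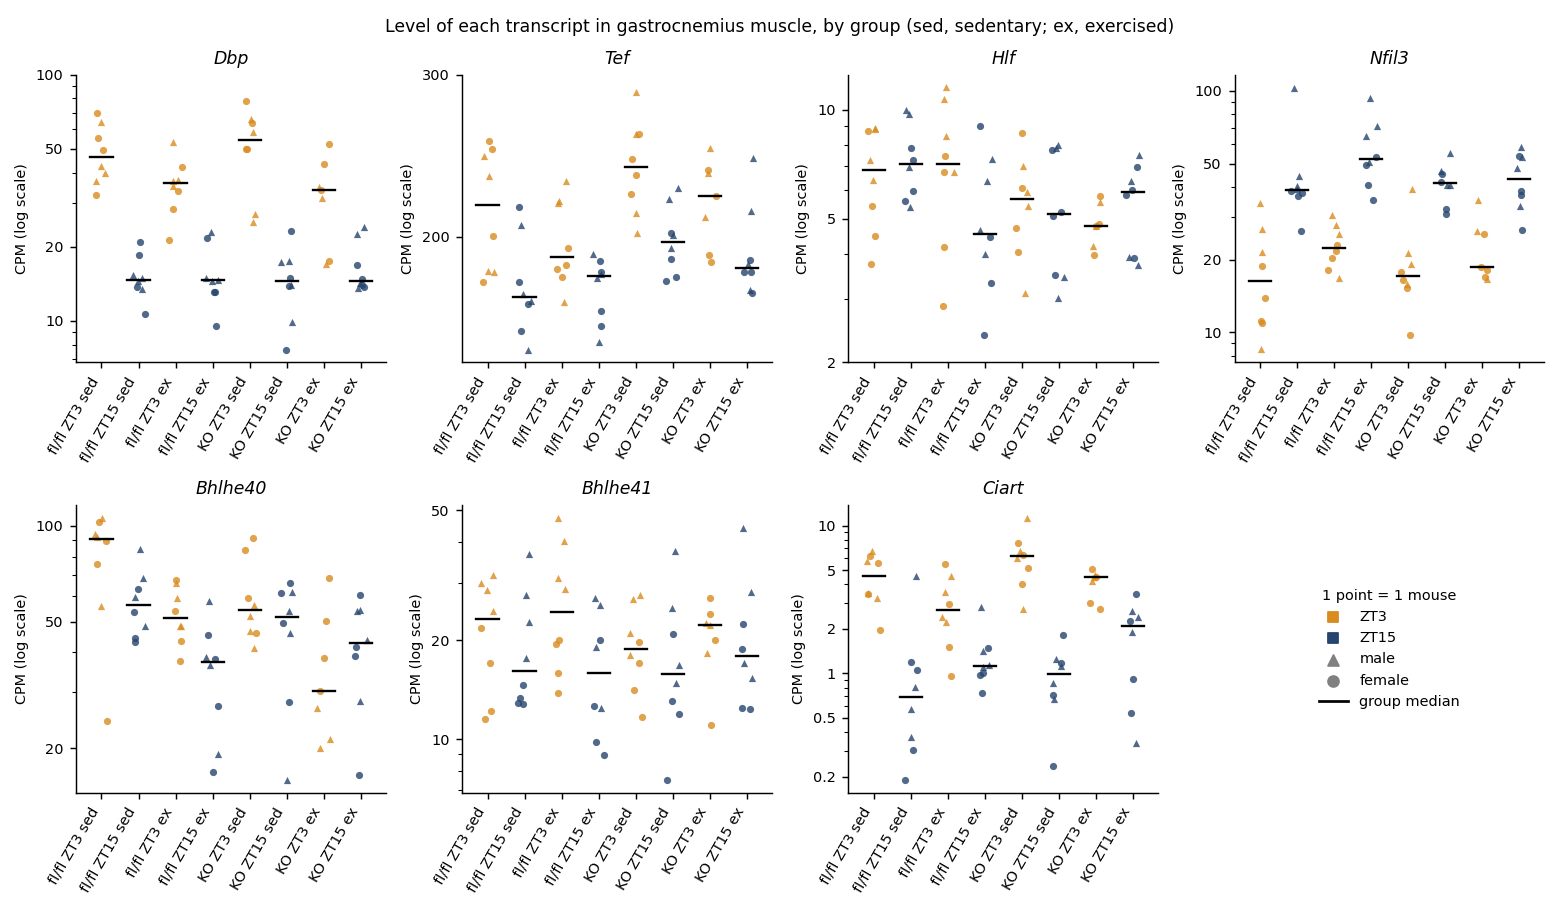
CPM of each of the 7 transcripts in every mouse, on a logarithmic y axis, by group on the x axis (genotype, ZT, sed for sedentary, ex for exercised). Points are mice, colored by ZT and shaped by sex, and lines are group medians. The medians of Dbp and Ciart sit lower and those of Nfil3 higher at ZT15 in all 4 pairs of groups, whereas Hlf overlaps throughout.

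To determine which of these transcripts differed with the time of day, mice run or mock-run at ZT15 were compared with those at ZT3. This was done in each of the 4 combinations of genotype and treatment. At ZT15, 3 members were lower and 1 was higher than at ZT3 when averaged over the combinations: Dbp, Ciart, and Tef fell, and Nfil3 rose. Of the 15241 genes tested, 8.02% passed the same threshold (adjusted p under 0.1 by edgeR's quasi-likelihood test), 4.09% as higher and 3.92% as lower at ZT15. By combination, 4 of 7 members passed in sedentary fl/fl (1.88% of all genes), 2 in exercised fl/fl (1.18%), 3 in sedentary HIF1α KO (0.479%), and 2 in exercised HIF1α KO mice (0.663%).

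Dbp, the founding PAR-bZIP factor, was at 32.6, 46.1, and 69.7 CPM (lowest, median, and highest mouse) in sedentary fl/fl mice at ZT3 and at 10.7, 14.7, and 20.9 CPM at ZT15. In sedentary HIF1α KO mice it was at 25.3, 54.4, and 78.3 CPM at ZT3 and at 7.62, 14.5, and 23.3 CPM at ZT15. In both genotypes every sedentary mouse at ZT3 was above every sedentary mouse at ZT15, a separation seen for 0.171% (fl/fl) and 0.0919% (HIF1α KO) of all genes. After exercise the ranges met, at 21.2, 36.2, and 53.5 CPM against 9.52, 14.6, and 23.03 CPM in fl/fl and at 17.1, 33.98, and 52.2 CPM against 13.6, 14.5, and 23.97 CPM in HIF1α KO mice. The log2 fold change was −1.67 (SE 0.223) and −1.21 (SE 0.221) in sedentary and exercised fl/fl and −1.84 (SE 0.222) and −0.97 (SE 0.226) in sedentary and exercised HIF1α KO mice, and all 4 passed (adjusted p = 1.05e-06, 0.0011, 3.73e-07, and 0.0242). Averaged over the combinations it was −1.42 (SE 0.111, adjusted p = 4.43e-15), a 2.68-fold difference and the seventh smallest p of all genes (rank 7). When the model held no groups but those compared, the call in exercised HIF1α KO mice was lost (adjusted p = 0.123). Dbp shares exon sequence on the opposite strand with Sphk2, whose counts equalled 35.3% of those of Dbp. The strand setting of the counting is not given in the sources used here.

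Ciart, the repressor CHRONO, had a log2 fold change of −1.72 over all combinations (SE 0.182, adjusted p = 1.38e-10, 3.29-fold). In sedentary fl/fl mice it was at 1.97, 4.53, and 6.74 CPM at ZT3 and at 0.191, 0.691, and 4.54 CPM at ZT15 (log2 fold change −2.09, SE 0.378, adjusted p = 0.000761). A single mouse at ZT15, mouse 8, held the value of 4.54 CPM, and without it the log2 fold change was −2.75. In sedentary HIF1α KO mice the ranges did not overlap, at 2.73, 6.18, and 11.3 CPM against 0.238, 0.997, and 1.81 CPM (log2 fold change −2.54, SE 0.356, adjusted p = 3.67e-06). In exercised mice Ciart had log2 fold changes of −1.06 in fl/fl (SE 0.367, adjusted p = 0.211) and −1.20 in HIF1α KO (SE 0.355, adjusted p = 0.132), neither of which passed.

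Nfil3, the D-box repressor, moved in the opposite direction. It was at 8.49, 16.3, and 34.3 CPM in sedentary fl/fl mice at ZT3 and at 26.2, 38.8, and 103 CPM at ZT15, and at 9.70, 17.2, and 39.4 CPM against 31.02, 41.4, and 55.4 CPM in sedentary HIF1α KO mice. The value of 103 CPM was that of mouse 8, and the others of its group reached at most 44.3 CPM. Without mouse 8 the log2 fold change in sedentary fl/fl mice was 1.11 (edgeR, adjusted p = 0.000474). In exercised fl/fl mice the ranges were 16.8 to 30.7 CPM at ZT3 and 35.4 to 93.0 CPM at ZT15 and did not overlap, a separation seen for 0.131% of all genes. In exercised HIF1α KO mice they were 16.6 to 35.3 CPM and 26.6 to 58.6 CPM, and no member was separated there (0.151% of all genes were). Log2 fold changes were 1.34 (SE 0.205) and 1.29 (SE 0.205) in sedentary and exercised fl/fl and 1.14 (SE 0.203) and 0.93 (SE 0.210) in sedentary and exercised HIF1α KO mice, and all 4 passed (adjusted p = 3.59e-05, 8.99e-05, 0.000553, and 0.0197). The average was 1.17 (SE 0.103, adjusted p = 2.62e-13).

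Tef fell by far less than Dbp. It was at 178.7, 216.4, and 253.9 CPM in sedentary fl/fl mice at ZT3 and at 150.8, 171.8, and 215.5 CPM at ZT15, ranges that overlapped. The log2 fold change was between −0.17 and −0.28 in the 4 combinations and −0.22 on average (SE 0.0420, adjusted p = 0.000132, 1.17-fold). The call in sedentary fl/fl mice alone (adjusted p = 0.0895) was lost under 7 of 11 alternatives, with adjusted p up to 0.199. It was also lost when any 1 of 19 of the 63 libraries was left out (adjusted p up to 0.281). These were mice 8, 14, 17, 41, 49, and 63 of the sedentary fl/fl group at ZT15, mice 18, 22, 60, and 62 of that at ZT3, mice 13, 48, 19, 31, and 37 of the exercised fl/fl groups, and HIF1α KO mice 9, 29, 33, and 64. The averaged call kept its direction and threshold in every alternative run.

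Hlf, the third PAR-bZIP gene, had an average log2 fold change of −0.07 (95% confidence interval −0.30 to 0.15, adjusted p = 0.796), and its ranges overlapped in all 4 combinations. Bhlhe40 and Bhlhe41 had average log2 fold changes of −0.29 (SE 0.135, adjusted p = 0.234) and −0.25 (SE 0.109, adjusted p = 0.194). Both passed when the model had a term for the mouse-number ranges (adjusted p = 0.0146 and 0.0504) and with the mitochondrial rRNA share as a covariate (adjusted p = 0.0207 and 0.00214), and over the other alternatives their adjusted p lay between 0.195 and 0.473. The median log2 fold change of the 7 members was −0.25 on average over the combinations, against −0.0034 for all genes. Of the cell type markers, the fibroblast gene Pdgfra, 1 of 4 on its list, was higher at ZT15 (log2 fold change 0.13, SE 0.0409, adjusted p = 0.05), and its part in these differences was not tested.

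**Figure D2:**
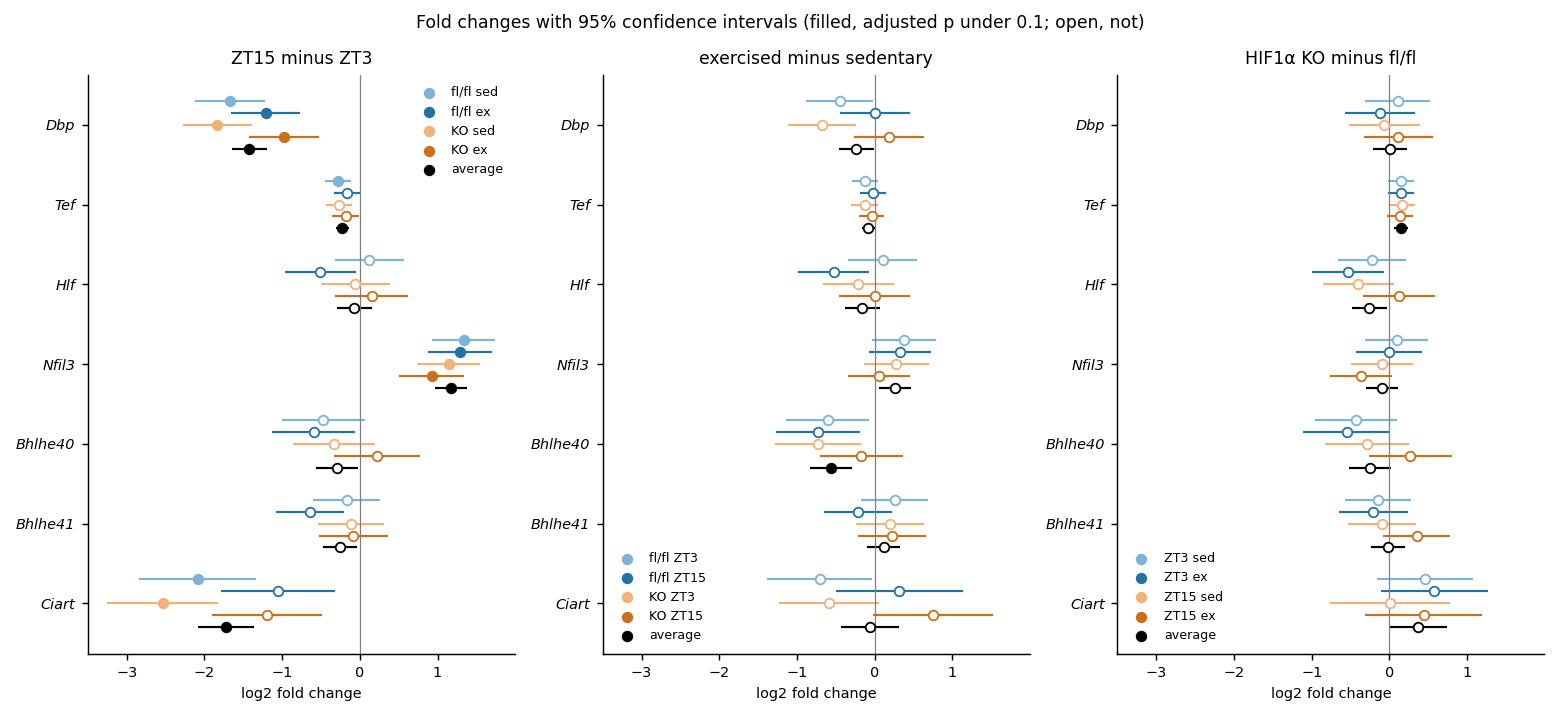
Log2 fold changes (x axis) of the 7 members (y axis) for time of day, exercise, and genotype, each in 4 combinations and averaged, with 95% confidence intervals. Filled points passed an adjusted p under 0.1. The averaged values that passed are Dbp, Tef, Nfil3, and Ciart for time of day, Bhlhe40 for exercise, and Tef for genotype.

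Because DBP, TEF, and HLF share the D-box with NFIL3, their transcripts were set against each other per kilobase of exon as a description, with no test. The ratio of Dbp to Nfil3 had a median of 1.84 in sedentary fl/fl mice at ZT3 (range 0.842 to 5.13) and of 0.250 at ZT15 (range 0.0887 to 0.476). In sedentary HIF1α KO mice the medians were 2.42 and 0.209, after exercise 1.00 at ZT3 and 0.166 at ZT15 for fl/fl, against 1.15 and 0.278 for HIF1α KO mice. With Tef and Hlf added to Dbp, the sum exceeded Nfil3 in every mouse at ZT3, with a lowest value of 1.85. At ZT15 the group medians of this ratio were between 1.05 and 1.48, and the lowest mice were at 0.531 and 0.629 in sedentary and exercised fl/fl and at 1.26 and 1.10 in sedentary and exercised HIF1α KO mice. These ratios depend on the length used: per kilobase of the longest transcript, the mean of Tef was 45.9 and that of Dbp 15.8 CPM per kb, while that of Nfil3 was 16.8 with either length. Tef made up a median of 61.8% of the 3 PAR-bZIP transcripts in sedentary fl/fl mice at ZT3 and 79.7% at ZT15, and Dbp 35.3% and 16.99%.

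**Figure D3:**
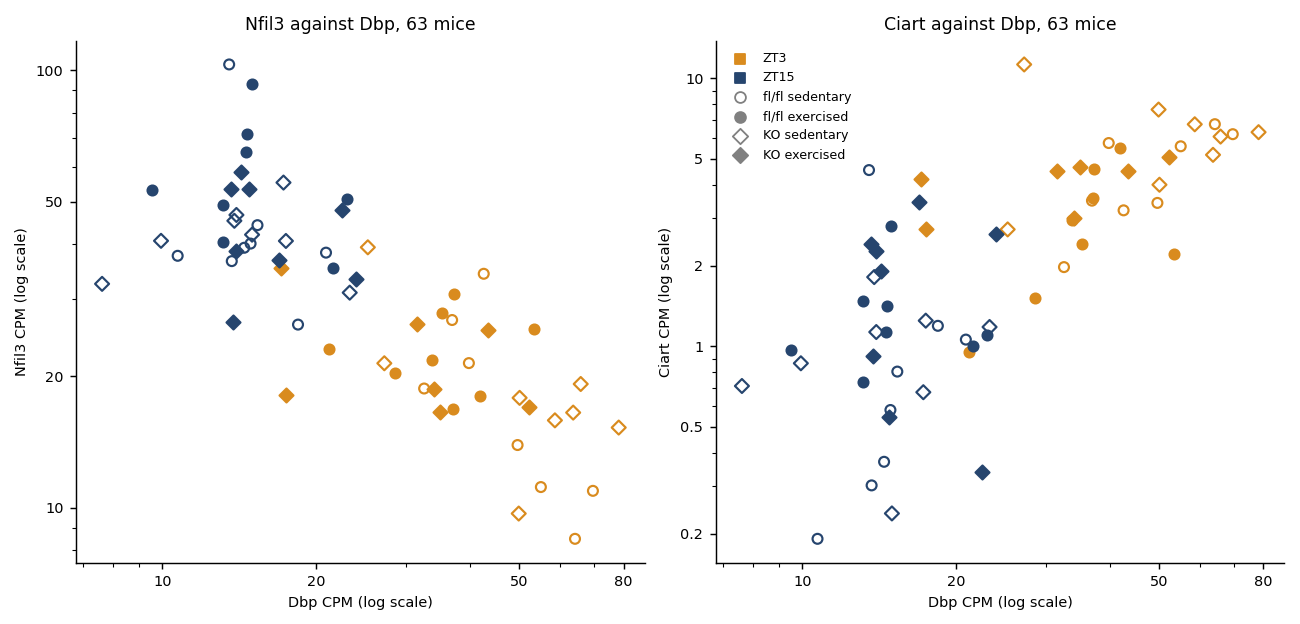
Nfil3 (left) and Ciart (right) against Dbp in CPM, with both axes logarithmic and 1 point per mouse (63 mice). Color gives the ZT, shape the genotype, and filled points are exercised. Most mice at ZT3 lie at higher Dbp than those at ZT15, which are between 7.62 and 23.97 CPM, but the times overlap: Dbp at ZT3 reaches down to 17.1 CPM, Nfil3 at ZT3 up to 39.4 CPM against a lowest value of 26.2 CPM at ZT15, and Ciart at ZT3 down to 0.954 CPM.

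The core clock was measured in the same mice through 13 genes, all of which were tested. At ZT15, 3 of the 13 were higher and 4 were lower on average, with a median log2 fold change of 0.03. Those with the smallest p were Nr1d1 and Nr1d2, which encode REV-ERBα and REV-ERBβ (log2 fold change −2.38, SE 0.137, and −0.64, SE 0.0425), Cry1, which encodes a repressor of CLOCK:BMAL1 (0.78, SE 0.0618), and Per3, a period gene (−1.02, SE 0.102). Their adjusted p were 3.06e-20, 1.31e-18, 1.91e-15, and 3.31e-11. Among 6 tested kinases and ubiquitin ligases that act on clock proteins, Csnk1e, which encodes casein kinase 1ε, was the single call (log2 fold change 0.19, SE 0.0493, adjusted p = 0.0085). None of the 7 tested C/EBP and other bZIP relatives, none of the 6 tested Orange-domain relatives of the DEC proteins, and none of the 3 tested genes reported as PAR-bZIP targets in liver and brain (Pdxk, Por, and Alas1) passed for time of day. The other 5 target genes on that list did not pass the filter on low counts.

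To assess the effect of exercise, exercised and sedentary mice were compared in the 4 combinations of genotype and time of day. Averaged over these, 1 of 7 members passed: Bhlhe40, which encodes DEC1, was lower after exercise. Of all genes, 2.84% passed, 2.06% as higher and 0.781% as lower. Bhlhe40 had a log2 fold change of −0.56 (with SE 0.135 and adjusted p = 0.0111, 1.47-fold). The adjusted p was between 1.04e-05 and 0.0268 over the alternatives. Its median was 90.8 CPM (range 24.4 to 105.9) in sedentary and 51.3 CPM (range 37.7 to 67.5) in exercised fl/fl mice at ZT3 and 56.6 CPM (range 43.02 to 84.5) and 37.5 CPM (range 16.9 to 58.1) at ZT15. In HIF1α KO mice the medians were 54.3 CPM (range 41.2 to 91.7) and 30.3 CPM (range 20.1 to 68.6) at ZT3 and 51.6 CPM (range 15.9 to 66.4) and 42.7 CPM (range 16.5 to 60.6) at ZT15. The ranges overlapped in all 4 pairs, and the log2 fold changes were −0.60, −0.73, −0.72, and −0.17 in that order. The median mitochondrial rRNA share in sedentary and exercised mice was 4.06 and 5.94% in fl/fl at ZT3, 4.54 and 2.49% in fl/fl at ZT15, 2.25 and 3.42% in HIF1α KO at ZT3, and 4.24 and 5.34% in HIF1α KO at ZT15. With this share as a covariate the averaged log2 fold change of Bhlhe40 was −0.57 (adjusted p = 0.000251). Of the cell type markers, the satellite cell gene Pax7, 1 of 2 on its list, was also lower after exercise (log2 fold change −0.46, SE 0.136, adjusted p = 0.0587), with a summed level of the list of 1.65 to 4.83 CPM in sedentary and 0 to 4.02 CPM in exercised mice. Its part in the difference of Bhlhe40 was not tested.

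Within single combinations no member passed for exercise with edgeR or with DESeq2. In fl/fl mice at ZT3, 0.236% of all genes passed, and 3 members (Bhlhe40, Ciart, and Dbp) had an unadjusted p under 0.05, as did 13.8% of all genes. In fl/fl mice at ZT15 no gene passed (0%), and 2 members (Bhlhe40 and Hlf) had an unadjusted p under 0.05, against 9.23% of all genes. In HIF1α KO mice, 0.131% of genes passed at ZT3 and 0.0591% at ZT15. An unadjusted p under 0.05 was found for 2 members at ZT3 (Bhlhe40 and Dbp, 5.07% of all genes) and for 0 at ZT15 (5.54%). With a term for the mouse-number ranges, Bhlhe40 passed at ZT3 in both genotypes (log2 fold change −0.75, adjusted p = 0.0347, for fl/fl, and −0.76, adjusted p = 0.0568, for HIF1α KO mice).

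Nfil3 had an average log2 fold change of 0.26 with exercise (SE 0.102, adjusted p = 0.242), and it passed when mouse 8, a sedentary fl/fl mouse at ZT15, was left out (0.31, adjusted p = 0.0617). Bhlhe41, the close relative of Bhlhe40, had 0.12 (95% confidence interval −0.10 to 0.33, adjusted p = 0.793). The ratio of Bhlhe40 to Bhlhe41 per kilobase had group medians of 4.38 to 4.76 in sedentary and 2.04 to 3.07 in exercised mice, which is a description of the same counts.

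The exercise effect on Dbp and Ciart was compared between ZT3 and ZT15, and the difference did not pass. For Dbp the log2 fold change at ZT3 was −0.45 (SE 0.214) for fl/fl and −0.68 (SE 0.220) for HIF1α KO mice, against 0.0060 (SE 0.225) and 0.18 (SE 0.224) at ZT15. The interaction of time and exercise averaged over genotypes was 0.66 (SE 0.220, unadjusted p = 0.00409 from edgeR, rank 38). For Ciart it was 1.18 (SE 0.365, unadjusted p = 0.00196 from edgeR, rank 20). Both had an adjusted p of 0.90, no gene passed for this interaction (0%), and 4.25% of all genes had an unadjusted p under 0.05, compared with these 2 of 7 members. Within genotypes no gene passed either (0% in both). An unadjusted p under 0.05 was found for 0 members in fl/fl (18.8% of genes) and for 2 in HIF1α KO mice (Dbp and Ciart, 2.24% of genes).

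Among the other genes measured for exercise, 4 of 11 tested exercise-responsive genes of muscle were higher, namely Ppargc1a (log2 fold change 1.22, SE 0.112, adjusted p = 5.05e-12), the metallothioneins Mt1 (1.24, SE 0.223) and Mt2 (1.23, SE 0.272), and Nr4a3 (1.46, SE 0.312). Nr1d2 was the single core clock gene of 13 that passed, with a log2 fold change of −0.15 (with SE 0.0423 and adjusted p = 0.0437). Of 15 HIF1 target genes, 2 were higher, the prolyl hydroxylase gene Egln3 (0.41, SE 0.0849, adjusted p = 0.00195) and the hexokinase gene Hk2 (0.42, SE 0.110, adjusted p = 0.0235). Pdxk, which encodes pyridoxal kinase and is a PAR-bZIP target in brain, was higher by 0.51 (SE 0.0997, adjusted p = 0.000778), 1 of 3 tested targets.

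Genotype was compared within each combination of treatment and time of day. Averaged over these, Tef was the single member that differed and was higher in HIF1α KO mice, by 0.15 on the log2 scale (SE 0.0419, adjusted p = 0.0246, 1.11-fold). Of all genes, 8.26% passed, 4.68% as higher and 3.58% as lower in HIF1α KO. The mean of Tef was 191.7 ± 27.8 CPM (SD) over 32 fl/fl and 212.4 ± 29.1 CPM (SD) over 31 HIF1α KO mice, and the log2 fold change was between 0.14 and 0.16 in the 4 combinations. The ranges of the 2 genotypes overlapped in each of them, for example 178.7 to 253.9 CPM in fl/fl and 201.6 to 287.3 CPM in HIF1α KO mice when sedentary at ZT3. The adjusted p over the alternatives was between 0.0144 and 0.0877.

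Hlf had a lower mean in HIF1α KO mice, at 5.38 ± 1.56 CPM (SD, 31 mice) against 6.65 ± 2.36 CPM (SD, 32 mice) in fl/fl, but the difference did not pass (log2 fold change −0.26, SE 0.114, adjusted p = 0.185). Ciart had a log2 fold change of 0.37 (with SE 0.183 and adjusted p = 0.233), and it passed without mouse 8 (0.54, adjusted p = 0.0486). Bhlhe40, a known HIF1 target, had −0.25 (95% confidence interval −0.52 to 0.02, adjusted p = 0.291). Its sign was not the same in all combinations. The log2 fold change was −0.43 in sedentary and −0.55 in exercised mice at ZT3, and −0.29 and 0.27 at ZT15. With a term for the mouse-number ranges the averaged value of Bhlhe40 was −0.14. Bhlhe41 had −0.02 (95% confidence interval −0.24 to 0.19, adjusted p = 0.936). Dbp differed least, with a log2 fold change of 0.0079 (95% confidence interval −0.21 to 0.23, adjusted p = 0.982).

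In single combinations no member passed for genotype with edgeR or DESeq2, against 0.4% of all genes in sedentary mice at ZT3, 1.43% in exercised mice at ZT3, 0.0459% in sedentary mice at ZT15, and 0.4% in exercised mice at ZT15. An unadjusted p under 0.05 was found once among the members, for Hlf in exercised mice at ZT3 (log2 fold change −0.53, SE 0.235, unadjusted p = 0.0267 from edgeR). The shares of all genes with an unadjusted p under 0.05 were 6.81, 17.4, 10.6, and 7.41% in the same order.

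The dependence of time of day and of exercise on genotype was tested as an interaction. No member and no other gene passed for time by genotype, exercise by genotype, or all 3 factors together (0% of genes in each with edgeR, and no member with DESeq2). An unadjusted p under 0.05 was found for 0 members in each, and for 4.25, 2.01, and 14.4% of all genes. For Dbp the interaction of time with genotype was 0.04 with a 95% confidence interval of −0.41 to 0.48, and for Nfil3 −0.28 (−0.68 to 0.13). The largest value among the members was that of Bhlhe40, at 0.48 (−0.06 to 1.02). Differences within these intervals are not excluded, and the size that these numbers of mice could detect was not computed.

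Among the HIF1 target genes, 3 of 15 were lower in HIF1α KO mice: Ankrd37 (log2 fold change −0.56, SE 0.161, adjusted p = 0.0271), Car9, which encodes a carbonic anhydrase (−0.53, SE 0.184, adjusted p = 0.0785), and P4ha1, a collagen prolyl hydroxylase subunit (−0.13, SE 0.0462, adjusted p = 0.0909). None of the 13 core clock genes passed for genotype with edgeR. Alas1, the first enzyme of heme synthesis and a PAR-bZIP target in liver, was higher by 0.16 (SE 0.0509, adjusted p = 0.0475), and the stress-induced bZIP gene Atf4 by 0.15 (SE 0.0441, adjusted p = 0.0357). The Schwann cell marker Mbp was lower in HIF1α KO mice (log2 fold change −0.44, SE 0.130, adjusted p = 0.0338), as was the fibroblast marker Pdgfra, 1 of 4 on its list (−0.12, SE 0.0409, adjusted p = 0.0731), whose list had a summed level of 941.6 to 2773 CPM in fl/fl and 836.1 to 1986 CPM in HIF1α KO mice. The satellite cell marker Myf5, 1 of 2, was higher (0.35, SE 0.126, adjusted p = 0.0961), with a summed level of 0 to 4.48 and 1.62 to 4.83 CPM. The part of these markers in the difference of Tef was not tested.

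Sex was a covariate in the model, and 2 members differed by it. Of all genes, 25.1% passed, 13.3% as higher and 11.8% as lower in males. Bhlhe41, which encodes DEC2, was at 12.4, 25.6, and 47.3 CPM (lowest, median, and highest) in 31 males and at 7.51, 13.9, and 26.9 CPM in 32 females. The log2 fold change was 0.73 (with SE 0.110 and adjusted p = 3.90e-07, 1.66-fold), and the ranges overlapped. Nfil3 was at 8.49, 39.3, and 103 CPM in males and at 9.70, 25.9, and 53.5 CPM in females (log2 fold change 0.50, SE 0.102, adjusted p = 0.000142, 1.41-fold). Bhlhe40 had a log2 fold change of −0.04 by sex (95% confidence interval −0.32 to 0.23, adjusted p = 0.875), and Dbp −0.02 (−0.24 to 0.20, adjusted p = 0.928).

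**Figure D4:**
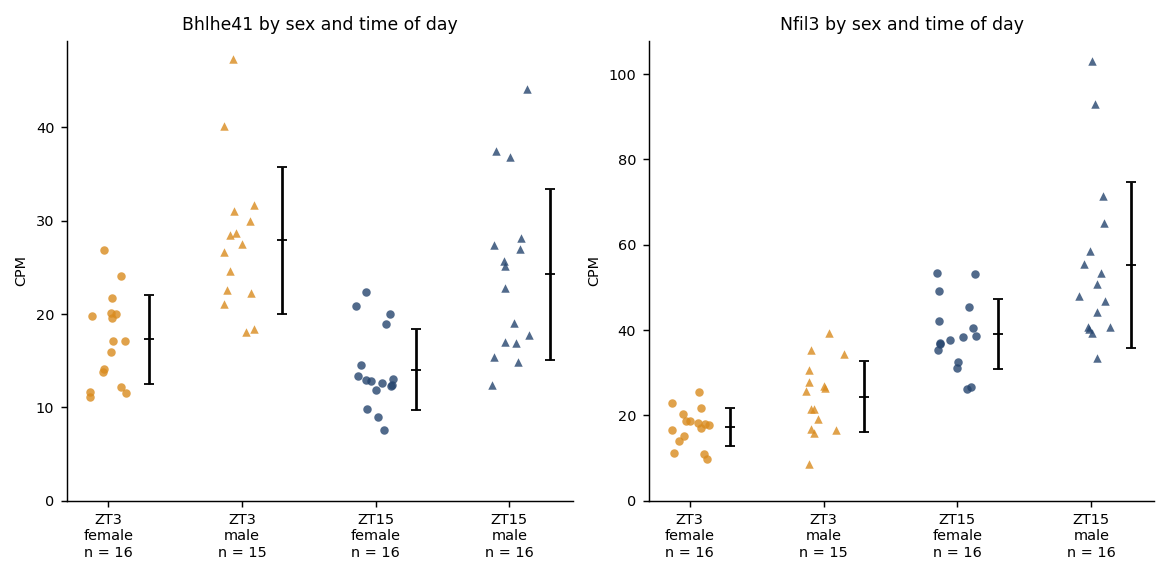
Bhlhe41 (left) and Nfil3 (right) in CPM by time of day and sex. Points are mice (n = 15 or 16 per column), and bars show the mean ± SD. Bhlhe41 was at 27.9 ± 7.85 CPM in males and 17.3 ± 4.75 CPM in females at ZT3, and at 24.2 ± 9.13 and 14.03 ± 4.32 CPM at ZT15.

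Markers of other fiber and cell types also differed by sex. All 6 slow-fiber markers were lower in males, with a median log2 fold change of −0.90 and a summed level of 231.6 to 1468 CPM in males and 541.9 to 3264 CPM in females. All 5 adipocyte markers were also lower, at a summed 49.6 to 299.2 CPM against 63.2 to 390.8 CPM. Of 4 fibroblast markers, 2 were lower in males (Col1a1 and Pdgfra, log2 fold change −0.62 and −0.13). Of 5 red blood cell markers, 3 were higher in males, as were 2 of 7 muscle fiber markers (Tnnt3 and Ckm, log2 fold change 0.18 and 0.15). The part of these cells and fibers in the sex difference of Bhlhe41 and Nfil3 was not tested. The time-of-day and exercise effects of the members did not differ between sexes at the threshold with edgeR or DESeq2, 0 of 7 had an unadjusted p under 0.05 in either test, and no gene passed (0% in both). The share of genes with an unadjusted p under 0.05 was 3.68% for time by sex and 2.73% for exercise by sex.

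To examine whether the members varied together from mouse to mouse, group and sex means were removed from log2 CPM and the 21 pairs of members were correlated over the 63 mice. An adjusted p under 0.1 was reached by 12 of the 21 pairs with Pearson's r, by 14 with Spearman's rho, and by 12 with Pearson's r after the ranges of mouse numbers were also removed (permutation of mice within groups, 100000 shuffles). The share of pairs of other genes that would pass was not computed, so these counts do not show a trait particular to the members. The highest was Hlf with Bhlhe41 (r = 0.67, rho = 0.69, permutation p = 1e-05 for both, the smallest the shuffles can give, adjusted p = 0.000105 and 7e-05). It was 0.66 without the 2 mice farthest from the median of Hlf and 0.66 with the mouse-number ranges removed. Dbp with Hlf followed (r = 0.62, rho = 0.60, permutation p = 1e-05 for both, adjusted p = 0.000105 and 7e-05), at 0.58 without the 2 farthest mice and 0.52 with the ranges removed. The DEC pair Bhlhe40 and Bhlhe41 had r = 0.61 and rho = 0.63 (permutation p = 2e-05 and 1e-05, adjusted p = 0.00014 and 7e-05), and r = 0.59 without the 2 farthest mice. This value was 0.36 once the ranges of mouse numbers were removed. The pairs that passed were not the same after this removal. Hlf with Bhlhe40 (r = 0.46, adjusted p = 0.00084) was at 0.24 (adjusted p = 0.112) and Tef with Bhlhe41 (r = −0.30, adjusted p = 0.0281) at −0.16 (adjusted p = 0.329) by the same permutation test. Tef with Ciart (0.28, adjusted p = 0.0848) and Nfil3 with Bhlhe41 (−0.32, adjusted p = 0.023) passed with Pearson's r after the removal and not before it. Both of these pairs also passed with Spearman's rho without the removal (permutation test, adjusted p = 0.0921 and 0.0816).

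Within groups Nfil3 varied against the 3 activators. It had r = −0.41 with Dbp (rho = −0.44, permutation p = 0.00124 and 0.00072, adjusted p = 0.00521 and 0.00302), −0.36 with Tef (rho = −0.30, permutation p = 0.0173 and 0.0323, adjusted p = 0.033 and 0.0618), and −0.35 with Hlf (rho = −0.37, permutation p = 0.00394 and 0.00367, adjusted p = 0.0103 and 0.00963). Without the 2 farthest mice these were −0.38, −0.37, and −0.28. Tef and Hlf, by contrast, had r = 0.02 with each other (rho = 0.02, permutation p = 0.885 and 0.893). All libraries share the same scaling, so that a change in composition of a library moves several genes at once.

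**Figure D5:**
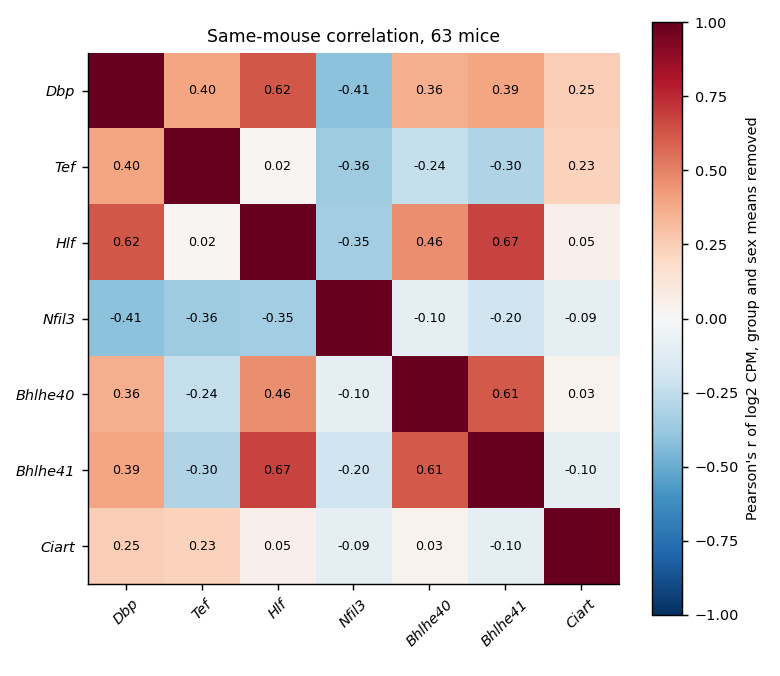
Pearson's r of log2 CPM between each pair of members over 63 mice after removal of group and sex means, with color from −1 (blue) to 1 (red) and the value in each cell. Hlf, Dbp, Bhlhe40, and Bhlhe41 form pairs from 0.36 to 0.67, and Nfil3 is negative with the 3 PAR-bZIP genes. With the mouse-number ranges removed, Hlf with Bhlhe40 goes from 0.46 to 0.24 and no longer passes.

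For each member, genes with the most similar pattern across the 63 libraries were found, with the other members not counted. Up to 3 are named, by Pearson's r of log2 CPM, as a description. These libraries share groups, so r was also computed after removal of group and sex means. Dbp was most like Nr1d2 (r = 0.86, and 0.53 after removal), Per3 (0.82 and 0.61), and Nr1d1 (0.80 and 0.24). Ciart was most like Coq10b (0.74 and 0.32), the predicted gene Gm17971 (0.74 and 0.45), and Nr1d2 (0.69 and 0.10). Nfil3 was most like Irf2bp2 (0.86 and 0.77), Arntl, which encodes BMAL1 (0.83 and 0.53), and the transporter gene Slc16a9 (0.79 and 0.30). For Dbp, Ciart, and Nfil3 all of these genes, clock genes or not, held a lower r once group and sex means were removed. Arntl, named here after its values were seen, had the most negative r of all tested genes other than the members with Dbp (−0.84, and −0.52 after removal), Tef (−0.71 and −0.60), and Ciart (−0.72 and −0.30).

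The genes with the highest positive r for the remaining members lay outside the core clock list. Tef was like Stard3 (r = 0.77, and 0.66 after removal) and Pdp1 (0.69 and 0.63), and Hlf most like Mtus1 (0.70 and 0.66), Zfp652 (0.69 and 0.63), and the muscle chloride channel gene Clcn1 (0.68 and 0.64). Bhlhe40 was most like Sin3a, which encodes a corepressor scaffold (0.76 and 0.76), Fgfr1 (0.74 and 0.77), and Ube2d1 (0.73 and 0.74). Bhlhe41 was most like Cpeb1 (0.80 and 0.67), Foxn3 (0.77 and 0.76), and Mef2a, a muscle transcription factor (0.75 and 0.73). For Hlf, Bhlhe40, and Bhlhe41 r with these genes was 0.63 or higher after removal of group and sex means.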

How the data were processed

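The authors used STAR and featureCounts to align the paired-end reads of poly-A libraries to mm10 and to count them, and deposited raw counts per gene for 64 mice. The tool versions, the annotation, and how strand and shared reads were treated are not given in the sources used here. Identifiers were matched to GENCODE M21 on GRCm38 (55141 of 55401). The library of mouse 44 was left out, as in the study. No 2 libraries of a group were identical over 217 pairs.

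Counts were analyzed with edgeR 4.0.16 in R 4.3.3: filterByExpr (minimum count 10), TMM scaling, and quasi-likelihood tests with a term for each group and for sex over 63 libraries, with Benjamini-Hochberg adjustment over all genes and a threshold of 0.1. Correlations used log2 CPM (prior count 2). Confidence intervals are 95%, and counting error is part of the fitted variance. Alternatives included DESeq2 1.42.0. The pipeline was tested on simulated data.

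The members, gene lists, and alternatives were chosen with earlier results of these data known. Named were the members, up to 3 genes most like each, up to 4 called genes per list with the smallest p, and Hif1a. Arithmetic per kilobase used the union of annotated exons. Some items that this rule covers are not reported here.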

Additional observations from a re-analysis of the deposited data

Results flagged for a closer look

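In 3 of 56 combinations of member and group, 1 mouse lay far from the others of its group, by a gap to its nearest neighbour that exceeded the 95% critical value of Dixon's test on log2 CPM. Chance alone gives about 1 in 20. Nfil3 was at 103.1 CPM in mouse 8 (sedentary fl/fl at ZT15), where the other 7 mice were between 26.2 and 44.3 CPM, and Ciart in the same mouse was the highest of its group at 4.54 CPM. Bhlhe40 was at 24.4 CPM in mouse 22 (sedentary fl/fl at ZT3), against 56.2 to 105.9 CPM in the others, and this mouse also had the lowest Bhlhe41 of its group, at 11.6 CPM. Bhlhe41 was at 11.1 CPM in mouse 23 (exercised HIF1α KO at ZT3), against 18.4 to 26.9 CPM. These 3 libraries held 9785696, 20398084, and 19767651 counts.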

How the results depend on the processing

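The averaged calls for time of day (Dbp, Tef, Nfil3, Ciart), exercise (Bhlhe40), genotype (Tef), and sex (Bhlhe41, Nfil3) kept direction and threshold in every alternative run and without any single library, except that Ciart did not pass the filter of at least 10 counts in every library and has no value there. The number of members called changed by more than 1.5 times in 4 cases: to 1 for time of day in exercised HIF1α KO mice with only the compared groups, to 1 for exercise at ZT3 in each genotype with mouse-number ranges as a covariate, and to 1 for exercise at ZT3 in HIF1α KO mice with the mitochondrial rRNA share. The cause was not tested. Leaving out 1 library at a time gave 3 to 4 members for time of day in sedentary fl/fl, 2 to 3 in exercised fl/fl, 3 in sedentary and 2 to 3 in exercised HIF1α KO mice, and 4 on average, 1 to 2 for exercise and for genotype on average, 2 to 3 for sex, and 0 in every other comparison. Calls gained this way were Nfil3 for exercise (0.31, adjusted p = 0.0617) and Ciart for genotype (0.54, adjusted p = 0.0486) on average without mouse 8, Ciart for time in exercised HIF1α KO mice without mouse 8, 27, or 51, Bhlhe41 for time in exercised fl/fl and Hlf for sex without mouse 52, Hlf for sex without mouse 55, and Ciart for sex without mouse 11. Beside the calls of Bhlhe40 and Bhlhe41 given above, alternatives added Ciart for time in exercised fl/fl mice with only the compared groups (adjusted p = 0.0918) and in exercised HIF1α KO mice with DESeq2 (0.0986) and with mouse-number ranges (0.0917), and Hlf for sex with mouse-number ranges (0.28, adjusted p = 0.0177). Signs turned for uncalled values under the mitochondrial rRNA share: Bhlhe41 for exercise in fl/fl at ZT15 (0.12), for genotype at ZT3 in sedentary (0.07444) and exercised mice (0.04843), for time by exercise in fl/fl (0.04839) and on average (0.05969), and for time by genotype (−0.04255), Hlf for genotype in exercised mice at ZT15 (−0.13) and time by genotype (−0.05839), Bhlhe40 for genotype in exercised mice at ZT15 (−0.07952) and time by exercise in fl/fl (0.33), and Tef for the latter (−0.0095). With mouse-number ranges they turned for Bhlhe41 in exercised mice at ZT3 by genotype (0.03925) and Hlf for time by genotype (−0.0055), and without mouse 8 for Nfil3 by genotype in sedentary mice at ZT15 (range −0.1639 to 0.1242 over single libraries left out). With the longest transcript as the length, levels per kilobase moved for Dbp (15.8), Tef (45.9), and Bhlhe40 (16.6), and the order of the members was unchanged. Interactions with sex were not run for leaving out libraries, no sex term, mouse-number ranges, or the rRNA share. No paired analysis was possible because each mouse number occurs once. Ciart had the lowest counts, from 1 to 231 per library, and without the 3 shallowest libraries its log2 fold change for time in sedentary fl/fl mice was −2.03 (adjusted p = 0.00156).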
